A study of Homo sapiens with 9 samples.

Results

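Metalloproteinases, cathepsins and their endogenous inhibitors were examined in BT-549 cells, an established human line from a triple-negative breast tumour. The members were chosen by name, as every gene of the array's annotation called MMP, ADAM, TIMP or CTS (cathepsin) with its number or letter, and RECK. This gave 58 of the 14884 genes tested, namely 18 MMPs, 20 ADAMs, 15 cathepsins, TIMP1 to TIMP4 and RECK. The ADAMTS genes, MMP2, MMP3, MMP7, MMP9 and the plasminogen activator genes with their receptor and serpins also belong to these families and were not analysed here. Cells were transfected with a synthetic mature miR-150-5p (mimic) or a non-specific negative control small RNA, each at 50 nM in the lipid Lipofectamine RNAiMAX, or with the lipid alone (mock), with 3 arrays per group. The medium was changed at 24 h and total RNA was taken at 72 h, so all 3 groups share the lipid and the change of medium. All samples come from 1 cell line. Whether the 3 samples of a group were grown apart is not labelled, and the p-values therefore speak only for the spread among these samples, which may be technical.

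Matrix metalloproteinases (MMPs) are zinc enzymes that cut collagens and other proteins around the cell, and most are made as inactive precursors. ADAMs are membrane-bound relatives that release growth factors and adhesion proteins from the cell surface. TIMPs are small secreted proteins that block the active site of MMPs and of some ADAMs, and RECK is a membrane-anchored inhibitor of MMPs. Cathepsins are mainly lysosomal proteases, of cysteine, aspartic or serine type, and several are secreted by tumour cells. Together these enzymes are known in breast cancer for remodelling the matrix during invasion.

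Values are log2 signals of Affymetrix Human Gene 2.0 ST arrays. A unit of 1 on this scale is a doubling of signal, and signals of different genes come from different probes and are not compared as amounts. Array medians over all features lay between 2.43 and 2.48, and the correlation across features (Pearson's r, over features that are not independent replicates) was 0.981 to 0.989 within groups and 0.977 to 0.986 between groups. The mesenchymal markers VIM, FN1, CD44 and ZEB1, the 4 measured of 6 listed, averaged 7.01 to 8.76. Of 5 measured markers of luminal or epithelial cells, ESR1, PGR and EPCAM averaged 1.78 to 2.13, KRT8 3.83 and KRT18 7.54, which lies within the range of the mesenchymal markers. The leukocyte markers CD68 and CD14 averaged 6.63 and 2.23, and the endothelial markers PECAM1 and VWF 2.19 and 2.37. Of the 58 members, 27 had a mean signal at or above the median of all genes (3.34), and the other 31 read between 1.47 and 3.75 on every array. Differences are given with their SE from limma, and genes with an adjusted p under 0.05 are called changed. Since RNA was taken from whole cultures, fewer cells that express a gene and less RNA per cell cannot be told apart.

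The mimic and the negative control are groups that both received a small RNA, of different sequence. In this comparison 4 members fell and 0 rose: ADAM19, the lysosomal cathepsins CTSO and CTSL, and MMP14, the membrane-type collagenase. ADAM19 fell by 1.36 on the log2 scale, CTSO by 1.25, CTSL by 0.84 and MMP14 by 0.69. Of the members 6.9% changed, all of them falling, against 3.18% of all genes tested, of which 1.76% rose and 1.42% fell. Of the 27 members with a mean signal at or above the median, 14.8% changed, against 5.85% of such genes, and these shares are a description, since a member can reach the median through the group in which it is high. The members had a median difference of -0.05, with 39 of 58 below 0 (67.2%), beside a median of -0.0044 and 51.3% below 0 over all genes. At an unadjusted p under 0.05 there were 14 members, or 24.1%, against 16% of all genes. The arrays of both groups did not overlap for 17 members (29.3%, of which 12 were lower in the mimic), against 18.6% of all genes.

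The mimic against mock gives the whole difference from cells that received no small RNA, and again 4 members fell and 0 rose. MMP1, interstitial collagenase, fell most, by 1.85 on the log2 scale, followed by CTSL (1.06), the inhibitor gene TIMP2 (0.94) and MMP14 (0.84). Of the members 6.9% changed, against 3.9% of all genes (2.28% rose and 1.62% fell). At or above the median signal, these shares were 14.8% of the members and 7.2% of the genes. The median of the members was -0.04 with 34 of 58 below 0, beside 0.0003 over all genes. An unadjusted p under 0.05 was found for 9 members (15.5%), below the 17.5% of all genes, and 15 members (25.9%) had arrays that did not overlap, against 20.2%.

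The negative control against mock asks what a small RNA of unrelated sequence did. MMP1 fell by 1.63 on the log2 scale and ADAM19 rose by 1.00, and the other 56 members did not pass. Of the members 3.45% changed, against 0.645% of all genes (0.168% rose and 0.477% fell). At or above the median signal, these shares were 7.41% of the members and 1.24% of the genes. With the replicate number as a block, 0.41% of all genes and the same count of 2 members passed. An unadjusted p under 0.05 was found for 12 members (20.7%, against 11% of all genes). The arrays did not overlap for 12 members (20.7%, against 12% of all genes), of which 7 were higher in the negative control. The comparisons share arrays in pairs and are not independent of each other.

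**Figure D1:**
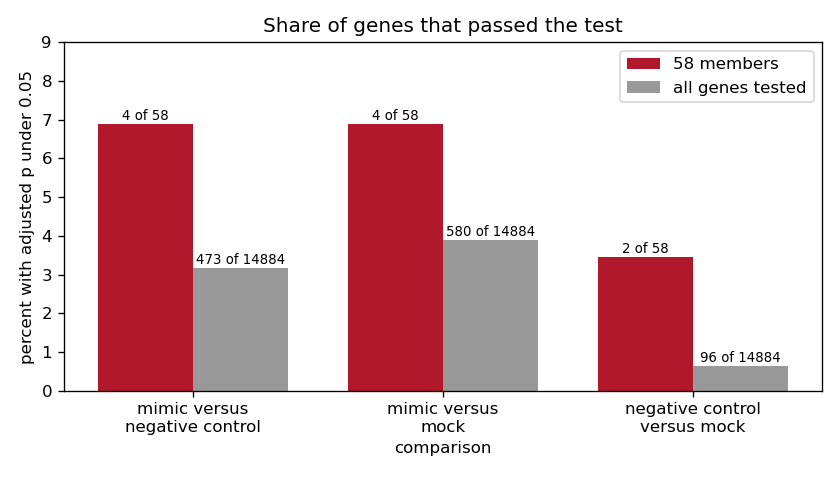
Percent of genes (vertical axis) that passed the test at an adjusted p under 0.05 in each comparison (horizontal axis), for the 58 members and for all 14884 genes. The members' bars stand for 4, 4 and 2 genes, beside 473, 580 and 96 of all genes.

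**Figure D2:**
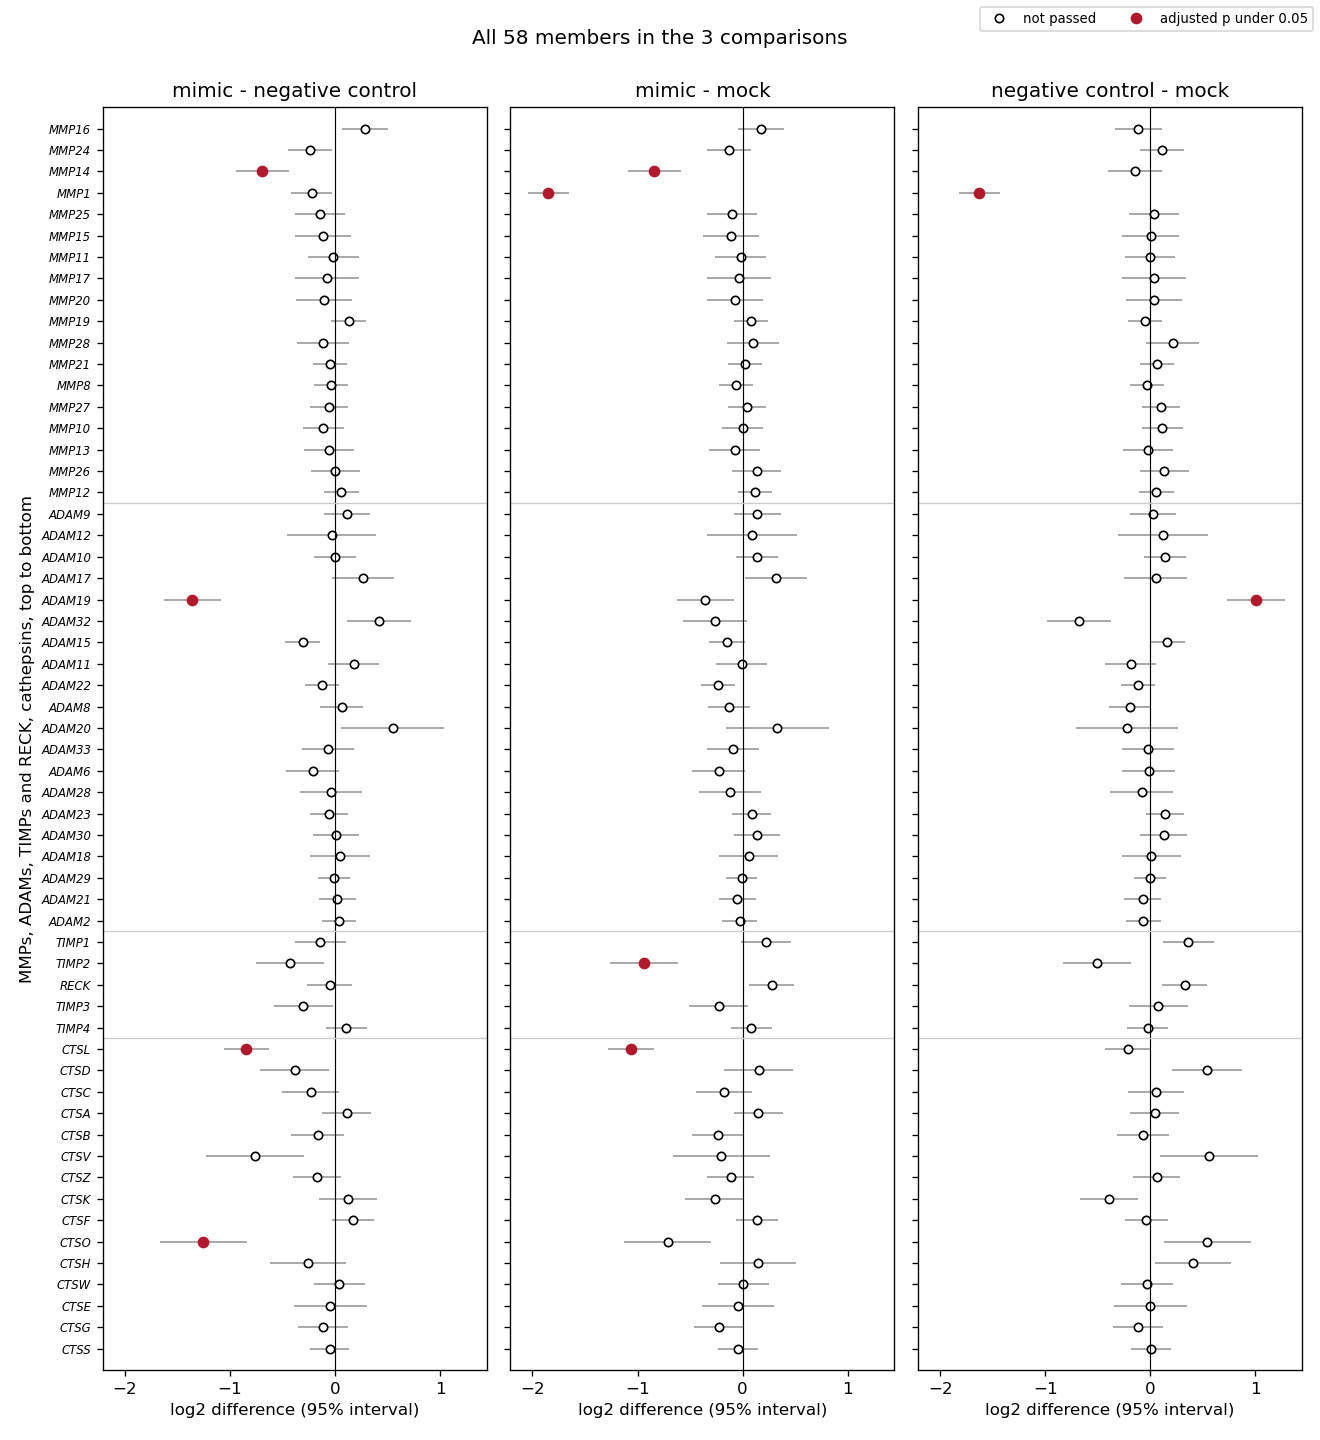
Log2 difference (horizontal axis) of each of the 58 members in the 3 comparisons, as points with 95% intervals, grouped by class and ordered by mean signal within a class. Filled points passed at an adjusted p under 0.05: ADAM19, CTSO, CTSL and MMP14 for the mimic against the negative control, MMP1, CTSL, TIMP2 and MMP14 for the mimic against mock, and MMP1 and ADAM19 for the negative control against mock.

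Among the MMPs, MMP1 was lower in both groups that received a small RNA than in mock. MMP1, which cuts fibrillar collagens, read 3.62, 3.43 and 3.50 on the mimic arrays, 3.83, 3.74 and 3.64 on the negative control arrays, and 5.35, 5.30 and 5.44 on the mock arrays. All 6 arrays that received a small RNA lay below all 3 mock arrays, and the mimic arrays lay just below those of the negative control. MMP1 was 3.6-fold lower in the mimic than in mock (log2 -1.85 ± 0.087, adjusted p = 2.78e-05) and 3.09-fold lower in the negative control than in mock (log2 -1.63 ± 0.087, adjusted p = 0.000101). The mimic differed from the negative control by -0.22 ± 0.087 (adjusted p = 0.245, 95% interval -0.41 to -0.03).

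MMP1 lies on chromosome 11 in a row of MMP genes, of which MMP20, MMP27, MMP8 and MMP10 lie on one side of it and MMP12 and MMP13 on the other. These 6 neighbours read between 1.61 and 2.65 on every array, below the median signal of all genes. Their differences were -0.11 to 0.06 for the mimic against the negative control, -0.08 to 0.12 for the mimic against mock and -0.03 to 0.11 for the negative control against mock. MMP13, another collagenase, for example averaged 1.76 ± 0.10 in the mimic, 1.81 ± 0.19 in the negative control and 1.83 ± 0.09 in mock (SD, n = 3 each).

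MMP14, which sits in the cell membrane, cuts collagen and activates the precursor of MMP2, was low in the mimic alone. It read 4.26, 4.33 and 4.36 on the mimic arrays, 5.10, 4.99 and 4.95 on the negative control arrays and 4.98, 5.08 and 5.41 on the mock arrays. The 3 mimic arrays lay below the 6 others, and the negative control overlapped mock. MMP14 was 1.62-fold lower in the mimic than in the negative control (log2 -0.69 ± 0.113, adjusted p = 0.0125) and 1.79-fold lower than in mock (log2 -0.84 ± 0.113, adjusted p = 0.00515). The negative control differed from mock by -0.15 ± 0.113 (adjusted p = 0.717, 95% interval -0.40 to 0.11). Without the array mimic 1, the difference from the negative control was -0.66 with an adjusted p of 0.0545.

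The promoter of MMP14 is shown because MMP14, CTSL and ADAM19 were the changed members with a sequence in the RefSeq promoter table used. It runs from 250 bases before to 50 after the start of the gene and lies at chr14:22836335-22836634 of GRCh38.p14, on the + strand. Capitals mark matches to 5 short motifs, searched on both strands. The AP-1 motif, bound by FOS and JUN proteins, was taken as TGAGTCA. The E-box was taken as CAGGTG, the form bound by ZEB1 and the SNAI repressors. The GC box, bound by SP1, was GGGCGG in these letters. The CCAAT box, bound by NF-Y, is spelled by its name, and the Ets core, bound by ETS2 and its relatives, was CCGGAA in these letters.
MMP14: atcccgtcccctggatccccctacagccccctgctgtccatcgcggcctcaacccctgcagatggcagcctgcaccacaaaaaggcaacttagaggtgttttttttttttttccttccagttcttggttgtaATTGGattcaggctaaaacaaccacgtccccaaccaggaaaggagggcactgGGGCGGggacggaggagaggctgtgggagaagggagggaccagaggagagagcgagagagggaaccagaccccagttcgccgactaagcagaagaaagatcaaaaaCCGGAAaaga
It holds 1 CCAAT box at bases 133 to 137, 1 GC box at 185 to 190 and 1 Ets core at 291 to 296, counted from 1 at the 5′ end of the printed run. Among all 35116 promoters of this length, 34.6% hold the CCAAT box, 45% the GC box, 17.2% the Ets core, 20.6% the E-box and 4.95% the AP-1 motif. Of the 36 members with a promoter in the table, 16 held the CCAAT box, 22 the GC box, 5 the Ets core, 10 the E-box and 0 the AP-1 motif. No match in the promoters printed here overlaps another, and a match describes the letters and is not a binding site shown by these data.

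The other 16 MMPs did not pass in any comparison. Against the negative control the 17 MMPs that did not pass, MMP1 included, had differences from -0.24 (MMP24) to 0.28 (MMP16). MMP16, a membrane-type MMP like MMP14, averaged 8.23 ± 0.10 in the mimic, 7.95 ± 0.17 in the negative control and 8.06 ± 0.04 in mock (SD, n = 3 each). Its 3 mimic arrays, at 8.17 to 8.34, lay above both other groups, with a difference of 0.28 ± 0.098 from the negative control (adjusted p = 0.184). MMP24 and MMP25, also anchored in the membrane, differed from the negative control by -0.24 (adjusted p = 0.239) and -0.14 (adjusted p = 0.592), and of the 18 MMPs only 5 reached the median signal of all genes. The second feature of MMP24, with a mean of 2.67, differed from the negative control the other way, by 0.12. The further features of MMP25 differed from it by -0.09 and -0.06.

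Among the ADAMs, ADAM19 was the sole member that changed, in both comparisons that include the negative control. ADAM19, which sheds growth factors of the neuregulin family, read 5.76, 5.98 and 5.90 on the mimic arrays, 7.26, 7.05 and 7.40 on the negative control arrays and 6.24, 6.05 and 6.40 on the mock arrays. No group overlapped another: the negative control was highest, mock next and the mimic lowest. ADAM19 was 2.56-fold lower in the mimic than in the negative control (log2 -1.36 ± 0.121, adjusted p = 0.00108) and 2.01-fold higher in the negative control than in mock (log2 1.00 ± 0.121, adjusted p = 0.00894). The mimic differed from mock by -0.35 ± 0.121, which did not pass (adjusted p = 0.158, 95% interval -0.63 to -0.08). Without the array mock 1 the rise in the negative control was 1.01 with an adjusted p of 0.0569, and on the 6 arrays of that comparison alone adjusted p = 0.0664.

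The promoter of ADAM19 (chr5:157575726-157576025, GRCh38.p14, - strand), with capitals as above, is shown because this gene had the largest difference between mimic and negative control among the members.
ADAM19: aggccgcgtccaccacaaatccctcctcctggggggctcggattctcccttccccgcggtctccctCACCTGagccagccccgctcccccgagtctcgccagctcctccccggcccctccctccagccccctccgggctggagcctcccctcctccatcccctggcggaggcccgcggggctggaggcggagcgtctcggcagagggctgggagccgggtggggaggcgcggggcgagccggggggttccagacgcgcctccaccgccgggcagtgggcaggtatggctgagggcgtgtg
It holds 1 match, an E-box at bases 67 to 72, and 75.7% of its bases are G or C, against a median of 58.7% over all promoters in the table.

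The best known sheddases did not pass. ADAM10, which sheds NOTCH receptors and cadherins, averaged 7.54 ± 0.02 in the mimic, 7.54 ± 0.04 in the negative control and 7.40 ± 0.15 in mock (SD, n = 3 each), and its 95% interval for the mimic against the negative control ran from -0.20 to 0.20. ADAM17, the TNF-alpha converting enzyme, averaged 7.68 ± 0.17, 7.41 ± 0.22 and 7.36 ± 0.13 in the mimic, negative control and mock. Its mimic arrays lay above the mock arrays, with a difference of 0.32 ± 0.133 (adjusted p = 0.249). ADAM9, which sheds HB-EGF, averaged 10.60 ± 0.10 in the mimic, 10.48 ± 0.08 in the negative control and 10.46 ± 0.15 in mock, and its adjusted p-values were 0.532 to 0.961.

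A pair of other ADAMs came near the threshold. ADAM15, which has an integrin-binding motif, read 4.53, 4.37 and 4.48 on the mimic arrays, 4.72, 4.76 and 4.82 on the negative control arrays and 4.59, 4.62 and 4.62 on the mock arrays. These groups did not overlap and stood in the same order as for ADAM19, with a difference of -0.31 ± 0.074 between mimic and negative control (adjusted p = 0.0609, and 0.0258 with the arrays quantile-normalized once more). ADAM32 averaged 4.77 ± 0.23 in the mimic, 4.36 ± 0.12 in the negative control and 5.04 ± 0.18 in mock. It differed by -0.68 ± 0.135 between negative control and mock (adjusted p = 0.0641, and 0.0347 with genes of lower than median signal left out) and by 0.42 ± 0.135 between mimic and negative control (adjusted p = 0.153). Of the 20 ADAMs, 9 reached the median signal, and the 19 that did not pass against the negative control had differences from -0.31 to 0.55. The upper end was ADAM20, a gene known from testis, at 3.35 ± 0.42, 2.80 ± 0.37 and 3.02 ± 0.03 in the mimic, negative control and mock (adjusted p = 0.251 for the mimic against the negative control).

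**Figure D3:**
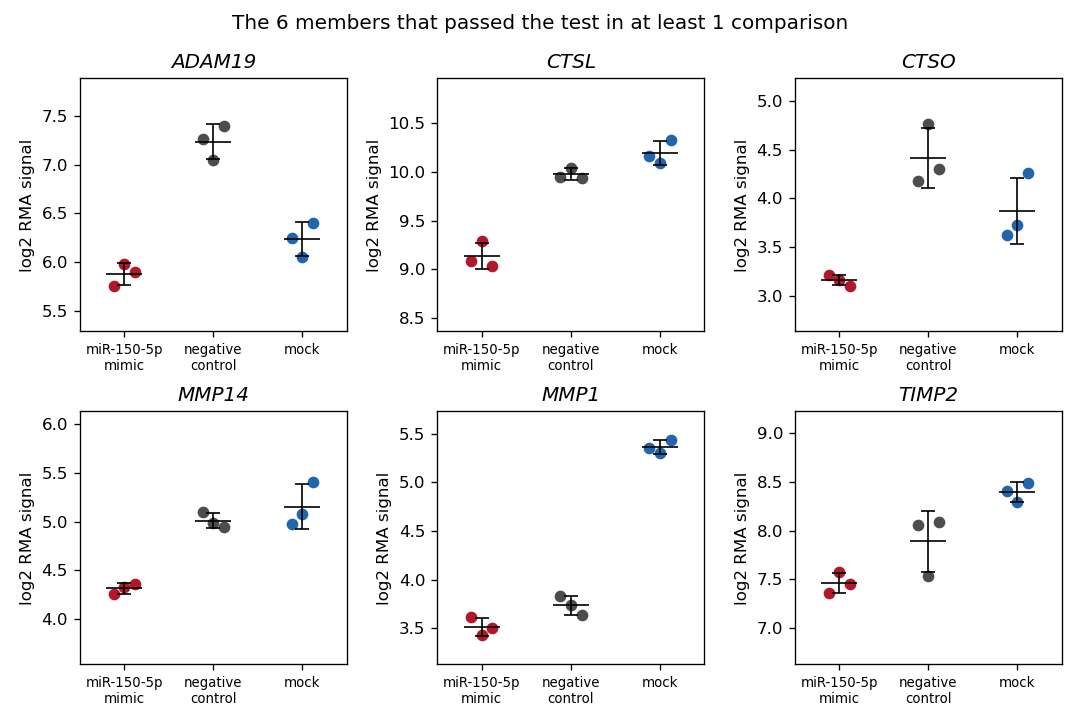
Log2 signal (vertical axis, spanning the same range of 2.6 units in each panel) of the 6 members that passed in at least 1 comparison, by group (horizontal axis). Points are arrays, and bars are the mean and SD of 3 arrays. MMP1 was low in both groups that received a small RNA, ADAM19 was high in the negative control, and CTSL and MMP14 were low in the mimic.

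Of the inhibitors, TIMP2 was the one that changed. TIMP2, which inhibits MMPs and also takes part in the activation of pro-MMP2 by MMP14, read 7.36, 7.57 and 7.45 on the mimic arrays, 8.05, 7.53 and 8.09 on the negative control arrays and 8.40, 8.29 and 8.49 on the mock arrays. The mimic arrays and the negative control arrays all lay below every mock array, and the array negative control 2 lay within the range of the mimic. TIMP2 was 1.91-fold lower in the mimic than in mock (log2 -0.94 ± 0.144, adjusted p = 0.00938), with an adjusted p of 0.05, just under the threshold, without the array mimic 1. The negative control differed from mock by -0.50 ± 0.144 (adjusted p = 0.204) and the mimic from the negative control by -0.43 ± 0.144 (adjusted p = 0.168). Without the array negative control 2, the difference between mimic and negative control was -0.61 and passed (adjusted p = 0.0167).

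The other inhibitors did not pass in any comparison. TIMP1, a secreted inhibitor of most MMPs, averaged 8.64 ± 0.11 in the mimic, 8.78 ± 0.15 in the negative control and 8.41 ± 0.13 in mock (SD, n = 3 each), and the 3 negative control arrays lay above the mock arrays (0.36 ± 0.107, adjusted p = 0.221). RECK averaged 5.37 ± 0.11 in the mimic, 5.42 ± 0.08 in the negative control and 5.09 ± 0.14 in mock, with every array of a small RNA above every mock array. Its differences from mock were 0.28 ± 0.097 for the mimic (adjusted p = 0.167) and 0.33 ± 0.097 for the negative control (adjusted p = 0.22). TIMP3, which binds to the matrix, averaged 2.30 ± 0.07, 2.60 ± 0.20 and 2.53 ± 0.20 in the mimic, negative control and mock, and TIMP4 2.07 ± 0.13, 1.96 ± 0.06 and 1.99 ± 0.04, both below the median signal of all genes. The second feature of TIMP3, with a mean of 1.92, gave differences of -0.02 to -0.04.

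Of the 15 cathepsins, CTSL and CTSO fell in the mimic. CTSL, a cysteine protease of lysosomes that is also secreted, read 9.08, 9.29 and 9.04 on the mimic arrays, 9.95, 10.05 and 9.94 on the negative control arrays and 10.17, 10.09 and 10.33 on the mock arrays. The mimic arrays lay well below the others, and the negative control arrays lay just below the mock arrays. CTSL was 1.79-fold lower in the mimic than in the negative control (log2 -0.84 ± 0.096, adjusted p = 0.00268) and 2.09-fold lower than in mock (log2 -1.06 ± 0.096, adjusted p = 0.000821). The negative control differed from mock by -0.22 ± 0.096 (adjusted p = 0.45).

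CTSO, a less studied cysteine cathepsin, read 3.21, 3.17 and 3.10 on the mimic arrays, 4.18, 4.76 and 4.30 on the negative control arrays and 3.62, 3.73 and 4.26 on the mock arrays. The mimic arrays lay below all others, and the negative control overlapped mock. CTSO fell in the mimic against the negative control (log2 -1.25 ± 0.185, adjusted p = 0.0079). No fold is given, since all 3 mimic arrays were below the median signal of all genes (3.34), which the mean of CTSO (3.82) passed through the other 2 groups. Its difference between mimic and mock was -0.71 ± 0.185 (adjusted p = 0.0664), which passed in 4 of 20 other settings, with adjusted p-values of 0.0324 to 0.0474, and 2 of these settings were filters on signal.

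CTSV, the closest relative of CTSL in the family and located on the same chromosome, read 5.42, 4.94 and 5.10 on the mimic arrays, 6.01, 6.29 and 5.45 on the negative control arrays and 5.44, 5.49 and 5.14 on the mock arrays. The mimic arrays lay just below those of the negative control (-0.76 ± 0.207, adjusted p = 0.0905) and overlapped mock (-0.20 ± 0.207, adjusted p = 0.696). Without the array negative control 3 the first of these was -0.99 and passed (adjusted p = 0.0317). How far probes of CTSL and CTSV can bind the other transcript was not tested. The promoters of both (chr9:87725869-87726168, + strand, for CTSL and chr9:97039093-97039392, - strand, for CTSV, GRCh38.p14) are shown, with capitals as above, because they share part of their sequence. For CTSV the start used by the promoter table lies 501 bases inside the outer end of the gene in RefSeq's gene table, whereas for CTSL, ADAM19 and MMP14 both tables have the same start.
CTSL: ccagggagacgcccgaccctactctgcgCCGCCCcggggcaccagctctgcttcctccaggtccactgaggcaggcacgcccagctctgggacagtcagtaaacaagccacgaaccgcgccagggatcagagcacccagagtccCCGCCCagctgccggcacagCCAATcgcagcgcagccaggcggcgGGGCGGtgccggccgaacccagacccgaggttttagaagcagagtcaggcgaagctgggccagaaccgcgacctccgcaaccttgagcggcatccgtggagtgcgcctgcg
CTSV: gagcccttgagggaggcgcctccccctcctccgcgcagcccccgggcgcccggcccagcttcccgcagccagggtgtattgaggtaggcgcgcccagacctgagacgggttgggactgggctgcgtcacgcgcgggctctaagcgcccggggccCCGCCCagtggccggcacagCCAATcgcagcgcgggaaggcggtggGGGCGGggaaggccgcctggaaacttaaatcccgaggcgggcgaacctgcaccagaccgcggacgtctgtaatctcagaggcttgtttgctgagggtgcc
Shared: gccggcacagCCAATcgcagcgc
The shared line is the longest run found in both, 23 bases long, at bases 155 to 177 of the CTSL run and 165 to 187 of the CTSV run, and it holds the CCAAT box. CTSL also has 3 GC boxes and CTSV 2.

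The other cathepsins did not pass, although CTSD stood apart in the negative control. CTSD, the aspartic protease of lysosomes, averaged 8.68 ± 0.12 in the mimic, 9.07 ± 0.21 in the negative control and 8.53 ± 0.26 in mock (SD, n = 3 each). It read 8.71, 8.78 and 8.55 on the mimic arrays, 8.91, 8.98 and 9.31 on the negative control arrays and 8.54, 8.27 and 8.78 on the mock arrays. The negative control arrays lay above all others, by 0.54 ± 0.147 over mock (adjusted p = 0.182), and the mimic differed from the negative control by -0.39 ± 0.147 (adjusted p = 0.23). CTSB, a cysteine protease linked to invasion, averaged 8.03 ± 0.09 in the mimic, 8.20 ± 0.04 in the negative control and 8.26 ± 0.22 in mock. CTSA, a serine carboxypeptidase that protects other lysosomal enzymes, averaged 8.31 ± 0.05, 8.20 ± 0.02 and 8.16 ± 0.21 in the same groups.

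CTSK, the collagen-cutting cathepsin of osteoclasts, averaged 4.78 ± 0.07 in the mimic, 4.65 ± 0.12 in the negative control and 5.04 ± 0.25 in mock, with the negative control below mock on every array (-0.39 ± 0.124, adjusted p = 0.25). CTSZ, an exopeptidase, averaged 5.36 ± 0.08, 5.53 ± 0.13 and 5.47 ± 0.13 in the mimic, negative control and mock. CTSS, known from antigen-presenting cells, averaged 1.69 ± 0.05 in the mimic, 1.74 ± 0.09 in the negative control and 1.74 ± 0.09 in mock. The 13 cathepsins that did not pass between mimic and negative control had differences from -0.76 to 0.17, and 10 of the 15 reached the median signal.

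**Figure D4:**
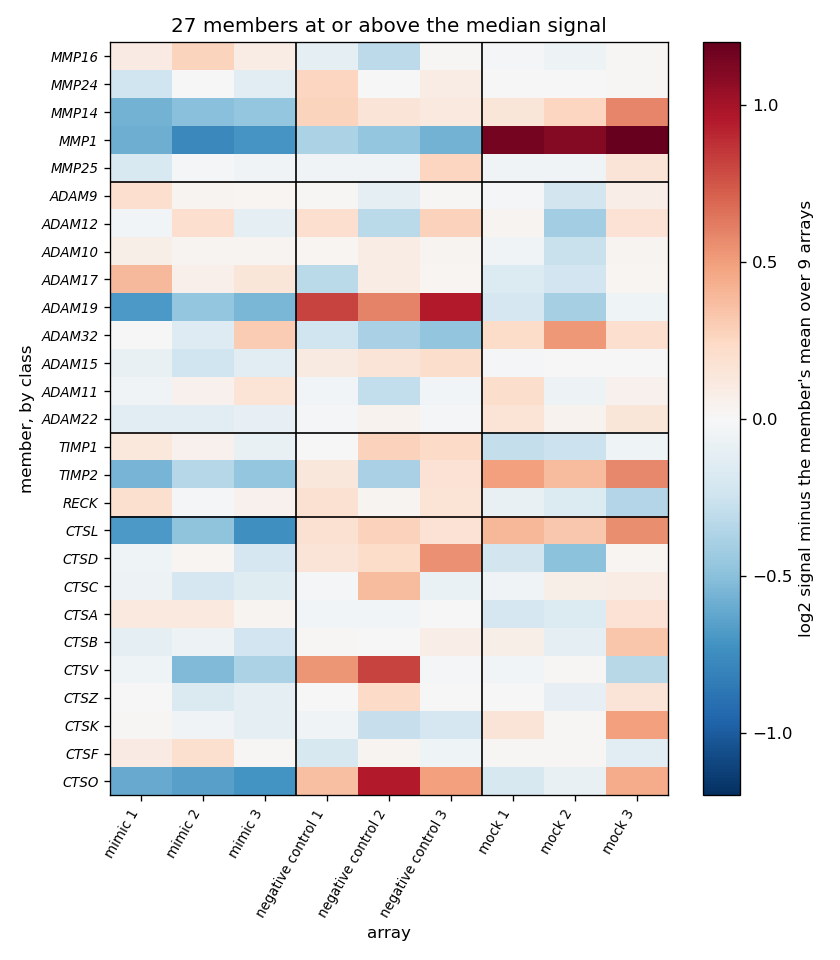
Log2 signal of each of the 27 members at or above the median signal of all genes (rows, by class) on the 9 arrays (columns), as the difference from the member's own mean over all arrays. The mimic columns are low for MMP14, MMP1, ADAM19, TIMP2, CTSL and CTSO. The negative control columns are also low for MMP1, and are high for ADAM19, CTSO and, on arrays 1 and 2, CTSV.

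Genes around these families, from lists written from general knowledge, are given by list. Of all genes, 3.18% changed for the mimic against the negative control, 3.9% against mock and 0.645% for the negative control against mock. Of genes at or above the median signal, 5.85%, 7.2% and 1.24% changed in the same comparisons. Each list had a median signal above that of all genes (3.34), so its shares are to be read against both. Of 13 measured inhibitors and clearing receptors outside the families, 1 (7.69%) rose in the mimic against each control: TFPI, an inhibitor of tissue factor and clotting proteases. TFPI averaged 6.44 ± 0.12 in the mimic, 5.46 ± 0.20 in the negative control and 5.24 ± 0.10 in mock (SD, n = 3 each), a difference of 0.98 ± 0.114 from the negative control (adjusted p = 0.00276). The other 12 did not pass in any comparison, and the list's median was -0.04 against the negative control and -0.08 against mock.

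Of 28 other secreted, membrane or lysosomal proteases and their partners, 1 rose and 1 fell in the mimic against the negative control, or 7.14%. The same share passed against mock, and 3.57% for the negative control against mock. The rise was that of PAPPA2, a metalloproteinase that cuts IGF-binding proteins, at 4.54 ± 0.30 in the mimic, 3.20 ± 0.09 in the negative control and 3.76 ± 0.29 in mock (1.34 ± 0.172, adjusted p = 0.00401). All negative control arrays of PAPPA2 were below the median signal of all genes (3.34). The fall was that of LGMN, the lysosomal protease legumain, which activates cathepsins. LGMN averaged 6.11 ± 0.24 in the mimic, 6.86 ± 0.08 in the negative control and 6.20 ± 0.15 in mock, with a difference of -0.74 ± 0.127 between mimic and negative control (adjusted p = 0.0152, up to 0.0627 without negative control 3, mimic 2 or mimic 3). Its negative control arrays lay above all others, by 0.65 ± 0.127 over mock (adjusted p = 0.0613). Against mock, PAPPA2 rose (0.78 ± 0.172, adjusted p = 0.0401, lost without any 1 array except mock 3, at up to 0.119, and 0.0744 with the replicate block) and HTRA1, a secreted serine protease, fell in the mimic, and HTRA1 fell in the negative control. HTRA1 averaged 8.41 ± 0.13 in the mimic, 8.60 ± 0.11 in the negative control and 9.14 ± 0.10 in mock, with differences from mock of -0.73 ± 0.099 (adjusted p = 0.00538) and -0.54 ± 0.099 (adjusted p = 0.0482, lost without any 1 of the 9 arrays, at up to 0.139, and 0.0757 with the replicate block).

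Of 21 transcription factors known to act on protease promoters, 1 passed for the mimic against the negative control (4.76%), 2 for the mimic against mock (9.52%) and 1 for the negative control against mock (4.76%). ETS2 fell in the mimic against each control. ETS2, of the Ets family, averaged 7.44 ± 0.18 in the mimic, 8.19 ± 0.13 in the negative control and 8.27 ± 0.20 in mock, a difference of -0.75 ± 0.130 from the negative control (adjusted p = 0.0159, up to 0.0658 without negative control 3, mimic 1 or mimic 3) and of -0.83 ± 0.130 from mock (adjusted p = 0.00978). KLF6, a zinc finger factor, rose in the mimic against mock (7.53 ± 0.10 in the mimic, 7.15 ± 0.06 in the negative control and 6.70 ± 0.13 in mock, difference 0.83 ± 0.093, adjusted p = 0.00215). Its negative control arrays also lay above mock, by 0.45 (adjusted p = 0.0754). ETV4, another Ets factor, rose in the negative control against mock (4.38 ± 0.05 in the negative control and 3.71 ± 0.24 in mock, difference 0.66 ± 0.112, adjusted p = 0.0339, lost without any 1 array except mock 2, at up to 0.151, and 0.089 with the replicate block).

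None of the 22 measured substrates and carriers of ADAM shedding passed in the 3 comparisons by limma. At an unadjusted p under 0.05 there were 4 for the mimic against the negative control (18.2%, beside 16% of all genes), 3 for the mimic against mock (13.6%, beside 17.5%) and 3 for the negative control against mock (13.6%, beside 11%). Their largest differences against the negative control were -0.32 and 0.49. Of 11 measured lysosomal genes other than cathepsins, 1 (9.09%) rose in the mimic against each control: MCOLN1, a calcium channel of the lysosome membrane, which averaged 5.50 ± 0.16 in the mimic, 4.75 ± 0.22 in the negative control and 4.96 ± 0.08 in mock. Its differences were 0.76 ± 0.125 from the negative control (adjusted p = 0.0128, up to 0.0558 without mimic 2 or mimic 3) and 0.55 ± 0.125 from mock (adjusted p = 0.0446, lost without any 1 array except negative control 1 or 2, at up to 0.13, and 0.065 with the replicate block). The other 10 lysosomal genes did not pass in any comparison, and the list's median difference was 0.06 against the negative control, beside -0.17 for the 15 cathepsins.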

How the data were processed

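Total RNA of 9 BT-549 samples was labelled with a FlashTag biotin kit, per the labels, and read on Affymetrix Human Gene 2.0 ST arrays. FlashTag kits are best known from microRNA arrays, and the labels give no protocol for their use on long transcripts, which bears on what the signals measure. The deposited log2 signals were made by the authors with RMA, per the submitters' processing notes. RMA corrects the background, brings the arrays to a common distribution and sums the probes of a feature. Its version, software and array definition: not given in the sources used here. As deposited, the table held 53617 features and 0 missing values.

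The platform annotation gave 16098 features exactly 1 gene symbol, and the other 37519 had no single symbol. The feature with the highest mean over the 9 arrays stood for each gene, leaving 14884 genes. The 58 members matched RefSeq of GRCh38.p14 by gene ID and came from 62 features, with more than 1 for MMP24, MMP25 and TIMP3. No filter on signal was used in the main test.

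The test was limma 3.58.1 (R 4.3.3), fitted over all genes and the 9 arrays with 1 mean per group, on 6 residual and 9.6 total degrees of freedom. Two-sided p-values were adjusted after Benjamini and Hochberg over all genes of a comparison. With 3 arrays per group, which limits the precision, the SE of the members was 0.0673 to 0.218, with a median of 0.106.

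The members, gene lists, tests and alternatives were chosen with earlier results of these data known. Members that passed in any comparison were named with every array's value. Also named were 18 measured members fixed as the best known of their role, with means and SD where they had not passed. ADAM12, ADAM15, ADAM20, ADAM32, CTSV, MMP16, MMP24 and MMP25 were named after their values were seen. From each list the members that passed were named.

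The deviations from the group means correlated between like-numbered arrays of negative control and mock (r = 0.15, 0.23 and 0.15 across genes). This is a possible pairing that no label gives, and whether these arrays share a batch was not tested. The main test did not use this possible pairing, and the replicate block used as an alternative also groups the mimic arrays by number. Like-numbered mimic arrays had r of -0.29 to -0.05 with both, so no pairing by number was seen for them. Pairs of unlike numbers were not examined. The alternatives are given below. The test was checked on simulated data with independent arrays, which cannot show how it holds where arrays share deviations.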

Additional observations from a re-analysis of the deposited data

How the results depend on the processing

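Of 20 alternatives, 9 left out 1 array each. The other 11 changed the scaling (quantile or median), the signal filter (25th percentile or median), the features used (a gene's mean, or every feature), the variance model (weights, or trend with robust fit), the arrays fitted (just the 6 compared), the threshold (0.01) or added the replicate block. Of 10 calls of members, 8 held under all 20. Those lost were MMP14 between mimic and negative control (at 0.01, and without mimic 1) and ADAM19 between negative control and mock (6 arrays, and without mock 1). The count of members called between negative control and mock, 2, was 1 on the 6 arrays and 1 to 2 when 1 array was left out, and 3, with ADAM32, among genes of at least median signal. For the mimic it was 3 to 5 against the negative control and 4 to 5 against mock. With the replicate block it was 4, 4 and 2, and no call of a member changed, whereas all genes called went to 292, 346 and 61, against 473, 580 and 96. Without 1 array all genes called numbered 199 to 431, 188 to 650 and 21 to 112, and under the other alternatives 140 to 608, 144 to 904 and 18 to 150. No result changed sign where a call was made. The members' median lay between -0.14 and -0.03 for the mimic against the negative control, between -0.13 and -0.0055 against mock, and between -0.0064 and 0.05 for the negative control against mock. No scaling moved the median of all genes by more than 0.06. Members below the median signal of all genes, 31 of 58, are limited by their signal, and a change in them may go unseen.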

Other observations

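ADAM12, which has a secreted form in tumours, read 7.87 on mock 2 and 7.96 on negative control 2, below the 8.32 to 8.57 of the other arrays of these groups, while mimic 2 read 8.49, above the 8.25 and 8.18 of mimic 1 and 3. Its group means of 8.31 ± 0.16, 8.34 ± 0.33 and 8.22 ± 0.31 in the mimic, negative control and mock (SD, n = 3 each) did not differ beyond this spread, with adjusted p-values of 0.876 to 0.963.

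In the members that did not pass, differences between negative control and mock were also of a size seen for the mimic. These ran from -0.68 for ADAM32 to 0.56 for CTSV, and those between mimic and mock from -0.71 for CTSO to 0.33 for ADAM20.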
